A study of Mus musculus with 6 samples.

Results

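The 10 genes described here are *Axin2*, *Rnf43* and *Znrf3*, which give feedback on Wnt signaling, *Lef1*, *Tcf7* and *Tcf7l2*, which encode DNA-binding TCF/LEF factors, *Ctnnb1*, which encodes beta-catenin, the coreceptors *Lrp5* and *Lrp6*, and *Sox9*. They were chosen by name, with the FPKM of these libraries already known, from a table of 24469 loci. Each of the 10 had exactly 1 locus in the table. FPKM are fragment numbers of a gene scaled for transcript length and for the size of the library. Because their values helped to choose them, the differences of these 10 genes are given as a description. Where an adjusted p from the fit across all loci is printed for one of them, it is part of that description and no independent evidence.

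RNA-Seq was performed on 6 libraries of MPCs, a conditionally immortalized mouse podocyte line that grows with interferon gamma and was differentiated for 10 days without it. All 6 libraries came from cells starved of serum for 12 h and then kept in high glucose (HG, 25 mM) for 12 h, and no library at normal glucose was analysed here. For the HG group (n = 2) no FGF1 is given, and whether it had a mock pretreatment is not stated. The rFGF1WT group (n = 2) was pretreated for 1 h with 100 ng/mL of recombinant wild-type FGF1, and the rFGF1ΔHBS group (n = 2) with the same amount of a partial agonist whose mutations weaken the dimerization of FGF receptors that heparan sulfate assists. Nothing states that the 2 libraries of a group came from separate cultures, so p-values measure only the spread between these libraries.

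In canonical Wnt signaling, a Wnt ligand binds a Frizzled receptor and LRP5 or LRP6, which holds back the destruction complex of APC, Axin, GSK3 and casein kinase that otherwise marks beta-catenin for degradation. Beta-catenin then reaches the nucleus and turns TCF/LEF proteins from repressors into activators of target genes, among them *Axin2*, *Lef1*, *Tcf7*, *Rnf43* and *Znrf3*. In podocytes, strong Wnt and beta-catenin activity is known from glomerular injury, and SOX9, an HMG-box factor that can oppose beta-catenin, marks repairing kidney epithelium. The stability of beta-catenin is set on the protein, which RNA-Seq does not measure.

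FPKM summed to between 179594 and 185168 per library. They hold no read totals, so absolute depth is unknown. The steps between low values gave depths of 0.973 to 1.01 relative to the first HG library. Only depths near that of the first HG library were searched, so a larger difference in depth could not have been found. The labelled cell type was only partly borne out. Of 15 podocyte markers, 14 were in the table and 7 passed the filter, and *Actn4* was the most abundant at a mean of 96.6 FPKM. The defining genes were low, with *Nphs1* (nephrin) at 0.618 to 0.942 FPKM and *Wt1* at no more than 0.0731 FPKM. The tubular gene *Cdh16* had a mean of 77.4 FPKM. The summed FPKM of the podocyte list was 222 to 228 in HG, 310 to 315 with rFGF1WT and 297 to 309 with rFGF1ΔHBS. *Nes* rose with both proteins (log2 differences of 0.89 ± 0.04 and 0.97 ± 0.04, SE, adjusted p = 0.00576 and 0.0051 by limma), and *Kirrel* rose with rFGF1WT (1.24 ± 0.20, adjusted p = 0.0483). *Kirrel* was also above HG (15.6 and 16.9 FPKM) in both rFGF1ΔHBS libraries (26.8 and 35.2 FPKM), without passing the test. Other podocyte markers lay below HG in every FGF1 library, namely *Synpo* (−0.94 ± 0.20 and −0.69 ± 0.20, adjusted p = 0.0787 and 0.131) and *Podxl* (−0.12 ± 0.06 and −0.15 ± 0.06, adjusted p = 0.305 and 0.229). The summed tubular and parietal list (8 of 10 genes in the table) was 145 to 156 FPKM in HG, 131 to 133 with rFGF1WT and 129 to 130 with rFGF1ΔHBS, while *Lrp2* was at −0.29 ± 0.06 with rFGF1WT (adjusted p = 0.0766) and *Cldn1* rose with both proteins (0.57 ± 0.05 and 0.50 ± 0.05, adjusted p = 0.0164 and 0.0205). The macrophage list summed to 60.9 to 62.8, 66.9 to 69.6 and 71.1 to 71.2 FPKM in the same order, with *Csf1r* lower with both proteins (−1.32 ± 0.09 and −1.19 ± 0.09, adjusted p = 0.0114 and 0.014), the locus that merges *Cd68* with *Eif4a1* higher with both (0.32 ± 0.05 and 0.37 ± 0.05, adjusted p = 0.0496 and 0.0363), *Ptprc* at no more than 0.0548 FPKM and *Adgre1* listed at 0 in 4 libraries. The mesangial and fibroblast list summed to 45.4 to 50.4 FPKM over all libraries, led by *Pdgfrb* (28.6 FPKM, log2 difference −0.26 ± 0.05 with rFGF1WT, adjusted p = 0.0795) with *Acta2* next (0.51 ± 0.09, adjusted p = 0.0559). Of the endothelial list *Pecam1* and *Cdh5* stayed at or below 0.0789 FPKM, and *Ehd3* alone was tested (−0.63 ± 0.31, adjusted p = 0.308). The part that these markers have in the values below was not tested. In bulk RNA, fewer cells of a type and less RNA per cell cannot be told apart.

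Levels of the 10 genes spanned a wide range. *Ctnnb1* had a mean of 140 FPKM over the 6 libraries, above 98.8% of the tested loci, followed by *Lrp5* at 23.7 FPKM and *Lrp6* at 10.3 FPKM. *Tcf7l2* (4.27 FPKM), *Tcf7* (3.55 FPKM) and *Znrf3* (2.91 FPKM) came next, and each overlapped its neighbour in this order across libraries. *Sox9* (1.59 FPKM) and *Axin2* (1.17 FPKM) overlapped each other, and *Lef1* (0.796 FPKM) overlapped *Axin2*. *Rnf43* was lowest at 0.381 FPKM. The effector and the coreceptors were thus the most abundant of the 10. Differences were fitted with limma on log2(FPKM + 1) for the 10562 loci with a mean of at least 1 FPKM, which kept 8 of the 10 genes and left out *Lef1* and *Rnf43*. Adding 1 shrinks the log2 differences of genes near 1 FPKM, so ratios of mean FPKM are given beside them.

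**Figure D1:**
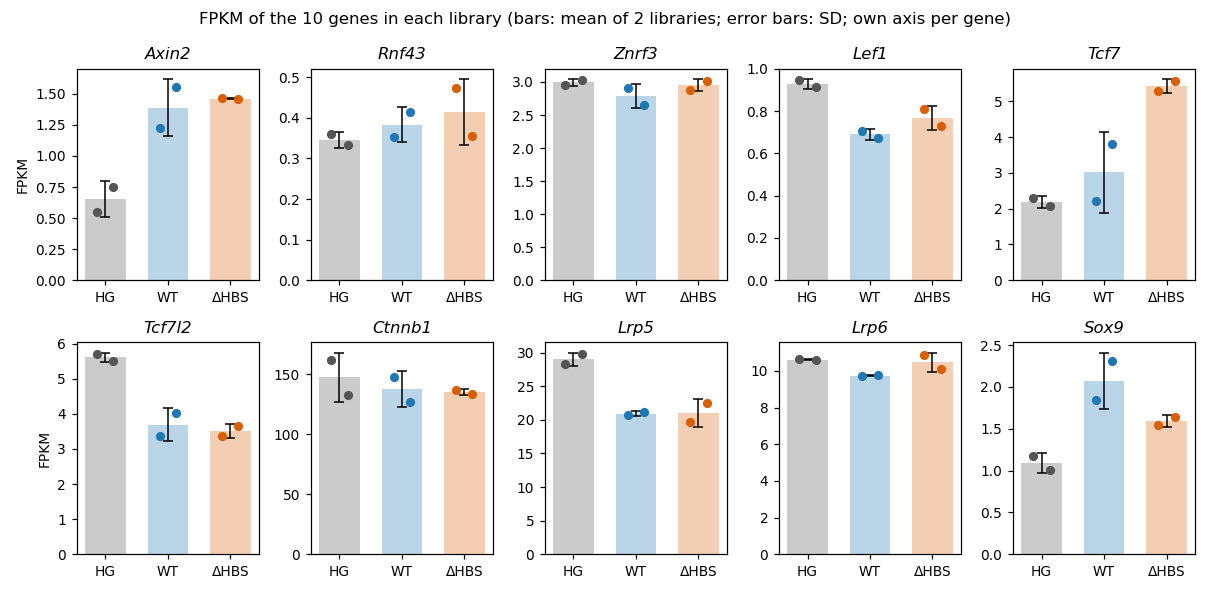
FPKM of each of the 10 genes (vertical axis, own scale from 0 for each gene) in HG, rFGF1WT (WT) and rFGF1ΔHBS (ΔHBS). Points are single libraries, bars the mean of 2 libraries and error bars the SD; both libraries of each FGF1 group lie above both HG libraries for *Axin2* and *Sox9* and below them for *Tcf7l2*, *Lrp5* and *Lef1*.

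*Axin2* (chr11:108920349-108950783, plus strand, GRCm38, up to 11 exons) encodes a scaffold of the destruction complex and is a widely used readout of beta-catenin activity. Its FPKM were 0.552 and 0.754 in HG, 1.22 and 1.55 with rFGF1WT, and 1.47 and 1.46 with rFGF1ΔHBS. Each FGF1 library exceeded the higher HG library, and the rFGF1ΔHBS libraries lay between the rFGF1WT libraries. The mean was 0.653 ± 0.143 FPKM (SD, n = 2) in HG, 1.39 ± 0.233 with rFGF1WT and 1.46 ± 0.00505 with rFGF1ΔHBS, ratios of 2.13 and 2.24. On the log2 scale the differences from HG were 0.53 ± 0.12 (SE, 95% interval 0.20 to 0.86) and 0.58 ± 0.12 (0.25 to 0.90). *Axin2* passed the filter through its FGF1 libraries, since both HG libraries were below 1 FPKM.

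The promoter of *Axin2* is shown as the start region of the gene with the highest ratio to HG among the feedback genes, with that of *Tcf7l2*, which was lower with both proteins, and the single window among the 10 genes that held the TCF/LEF letters, at an internal start of *Lef1*. Each is the 250 bases before a RefSeq start site on the plus strand of GRCm38.p6, and capitals mark matches to the TCF/LEF letters CTTTGA or the SOX letters ACAATG on either strand (TCAAAG and CATTGT on the other), which do not overlap each other here.
Axin2, chr11:108920099-108920348: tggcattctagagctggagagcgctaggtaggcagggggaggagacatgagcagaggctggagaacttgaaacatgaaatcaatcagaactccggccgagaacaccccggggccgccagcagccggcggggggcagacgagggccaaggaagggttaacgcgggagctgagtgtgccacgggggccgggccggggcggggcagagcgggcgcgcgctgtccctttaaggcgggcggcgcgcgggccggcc
Tcf7l2, chr19:55741560-55741809: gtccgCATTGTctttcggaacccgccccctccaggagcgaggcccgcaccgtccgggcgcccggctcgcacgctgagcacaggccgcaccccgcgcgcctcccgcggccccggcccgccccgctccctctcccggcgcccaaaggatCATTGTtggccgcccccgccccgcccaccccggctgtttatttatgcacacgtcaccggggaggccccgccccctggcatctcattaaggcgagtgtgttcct
Lef1 internal start, chr3:131156044-131156293: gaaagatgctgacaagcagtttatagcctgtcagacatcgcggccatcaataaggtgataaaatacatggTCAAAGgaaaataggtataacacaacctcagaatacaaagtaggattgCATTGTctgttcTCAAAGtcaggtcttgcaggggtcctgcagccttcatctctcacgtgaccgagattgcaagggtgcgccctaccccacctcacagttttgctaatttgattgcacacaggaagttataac
The *Axin2* window is GC-rich, with 70.0% G or C over the 300 bases that run to 50 bases past the start, and held neither set of letters. RefSeq windows were found for 6 of the 10 genes, 13 windows in all, and 1 of the 13 held the TCF/LEF letters, against 16.0% of 32851 mouse windows of the same length. The SOX letters were in 2 of 13 windows, against 12.6% of all windows, and the ETS letters CCGGAAG in 2 of 13, at the downstream start of *Tcf7* and an internal start of *Rnf43*, against 8.86%. The *Lef1* window shown and the *Rnf43* window with ETS letters lie at internal starts. No transcript listed for these genes in the table begins within 50 bases of those starts. The matches are descriptions of short letters in 1 window and say nothing of binding.

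*Rnf43* and *Znrf3* encode membrane ubiquitin ligases that remove Frizzled receptors from the cell surface, and both are beta-catenin targets in other tissues. *Rnf43* (chr11:87662722-87735539) had 0.360 and 0.333 FPKM in HG, 0.354 and 0.414 with rFGF1WT, and 0.473 and 0.356 with rFGF1ΔHBS. *Znrf3* (chr11:5276324-5444847, minus strand) had 2.96 and 3.03 FPKM in HG, 2.91 and 2.66 with rFGF1WT, and 2.89 and 3.02 with rFGF1ΔHBS. The groups overlapped for *Rnf43* in each comparison, and for *Znrf3* they overlapped except that both rFGF1WT libraries were just below the HG libraries. The log2 difference of *Znrf3* was −0.08 ± 0.07 (95% interval −0.28 to 0.12) with rFGF1WT and −0.02 ± 0.07 (−0.21 to 0.18) with rFGF1ΔHBS, and the latter turned to 0.0098 under median-ratio scaling and to 0.0072 without the first rFGF1ΔHBS library. The ratios to HG of these ligases ran from 0.929 to 1.20, beside 2.13 and 2.24 for *Axin2*, and the contrast between the genes was not tested.

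The 3 TCF/LEF genes had different patterns. *Lef1* (chr3:131110471-131224356, plus strand) is itself raised by beta-catenin in many tissues. Its FPKM were 0.946 and 0.913 in HG, 0.708 and 0.671 with rFGF1WT, and 0.808 and 0.729 with rFGF1ΔHBS. Both FGF1 groups were below HG, at 0.742 and 0.827 of its mean, at a level where all 6 libraries were under 1 FPKM.

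*Tcf7* (chr11:52252371-52283014, minus strand) encodes TCF1 and has 2 coding transcripts in the table, of 10 and 11 exons, that begin at separate starts. They were summed in 1 locus, so they cannot be told apart. Whether either holds the part of TCF1 that binds beta-catenin was not examined, so the values cannot be read as full-length TCF1. Its FPKM were 2.31 and 2.07 in HG, 2.22 and 3.82 with rFGF1WT, and 5.29 and 5.58 with rFGF1ΔHBS. Both rFGF1ΔHBS libraries were above all 4 other libraries, whereas 1 rFGF1WT library lay within the HG range and the other above it. The mean was 2.19 ± 0.172 FPKM in HG, 3.02 ± 1.13 with rFGF1WT and 5.43 ± 0.202 with rFGF1ΔHBS. Against HG the log2 difference was 0.31 ± 0.21 (95% interval −0.26 to 0.87) with rFGF1WT and 1.01 ± 0.21 (0.45 to 1.58) with rFGF1ΔHBS, and between the proteins it was 0.71 ± 0.21 (0.14 to 1.27). The SE is set largely by the 2 rFGF1WT libraries. The adjusted p of the rFGF1ΔHBS difference was 0.0736 with all 6 libraries and, over the alternative settings, ran from 0.0476 to 0.216. It was 0.0478, 0.0488 and 0.0476 without the first rFGF1WT library, the second or both, 0.204 and 0.216 without an HG library, 0.203 and 0.208 without a rFGF1ΔHBS library, 0.139 without the filter and 0.134 with a replicate block. Since *Tcf7* was chosen with these values known, the lower of them give no support.

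*Tcf7l2* (chr19:55741820-55933654, plus strand) encodes TCF4, the main partner of beta-catenin in many epithelia. Its FPKM were 5.71 and 5.52 in HG, 3.35 and 4.02 with rFGF1WT, and 3.36 and 3.64 with rFGF1ΔHBS. All 4 FGF1 libraries lay below both HG libraries, and the FGF1 groups overlapped each other. The mean was 5.61 ± 0.136 FPKM in HG, 3.69 ± 0.472 with rFGF1WT and 3.50 ± 0.202 with rFGF1ΔHBS, ratios of 0.657 and 0.624, with log2 differences of −0.50 ± 0.10 (95% interval −0.76 to −0.24) and −0.56 ± 0.10 (−0.82 to −0.30). The SOX letters occurred in the *Tcf7l2* window shown above at 2 places. The 18 *Tcf7l2* transcripts in the table were summed in 1 locus, so isoforms that lack the beta-catenin binding part cannot be told from those that have it.

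*Ctnnb1* (chr9:120929216-120960507, plus strand), the gene of beta-catenin, shares its locus with *Mir7090*, and the table does not divide their fragments. FPKM were 162 and 133 in HG, 148 and 127 with rFGF1WT, and 137 and 134 with rFGF1ΔHBS. The 3 groups overlapped. The log2 differences from HG were −0.10 ± 0.13 (95% interval −0.44 to 0.25) and −0.12 ± 0.13 (−0.46 to 0.23), and both changed sign without the first HG library, to 0.046 and 0.027.

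*Lrp5* and *Lrp6* encode the paired coreceptors that bind Wnt with Frizzled and recruit Axin to the membrane. *Lrp5* (chr19:3584828-3686564, minus strand) had 28.4 and 29.7 FPKM in HG, 20.7 and 21.2 with rFGF1WT, and 19.6 and 22.6 with rFGF1ΔHBS. All 4 FGF1 libraries were below both HG libraries, with means of 29.1 ± 0.983 FPKM in HG, 20.9 ± 0.411 with rFGF1WT and 21.1 ± 2.09 with rFGF1ΔHBS. The log2 differences were −0.45 ± 0.08 with each protein (95% intervals −0.68 to −0.23 and −0.67 to −0.22). *Lrp6* (chr6:134446476-134566965, minus strand) had 10.6 and 10.6 FPKM in HG, 9.74 and 9.75 with rFGF1WT, and 10.8 and 10.1 with rFGF1ΔHBS. The rFGF1WT libraries of *Lrp6* were the lowest of the 6, and the rFGF1ΔHBS libraries spanned the HG libraries. Its log2 differences were −0.11 ± 0.06 (−0.27 to 0.05) and −0.02 ± 0.06 (−0.18 to 0.14), and the second turned to 0.012 under median-ratio scaling and to 0.028 without the second rFGF1ΔHBS library. With both proteins the difference of *Lrp5* was larger in size than that of *Lrp6*, and the contrast between these genes was not tested.

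*Sox9* (chr11:112782224-112787760, plus strand) has 1 transcript of 3 exons in the table. Its FPKM were 1.17 and 1.01 in HG, 1.84 and 2.31 with rFGF1WT, and 1.55 and 1.64 with rFGF1ΔHBS. The 3 groups did not overlap, with rFGF1WT highest and rFGF1ΔHBS between it and HG. The means were 1.09 ± 0.115, 2.08 ± 0.335 and 1.59 ± 0.0675 FPKM, ratios to HG of 1.90 and 1.46. The log2 differences from HG were 0.55 ± 0.11 (95% interval 0.25 to 0.86) with rFGF1WT and 0.31 ± 0.11 (0.0030 to 0.62) with rFGF1ΔHBS, and between the proteins −0.24 ± 0.11 (−0.55 to 0.066).

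**Figure D2:**
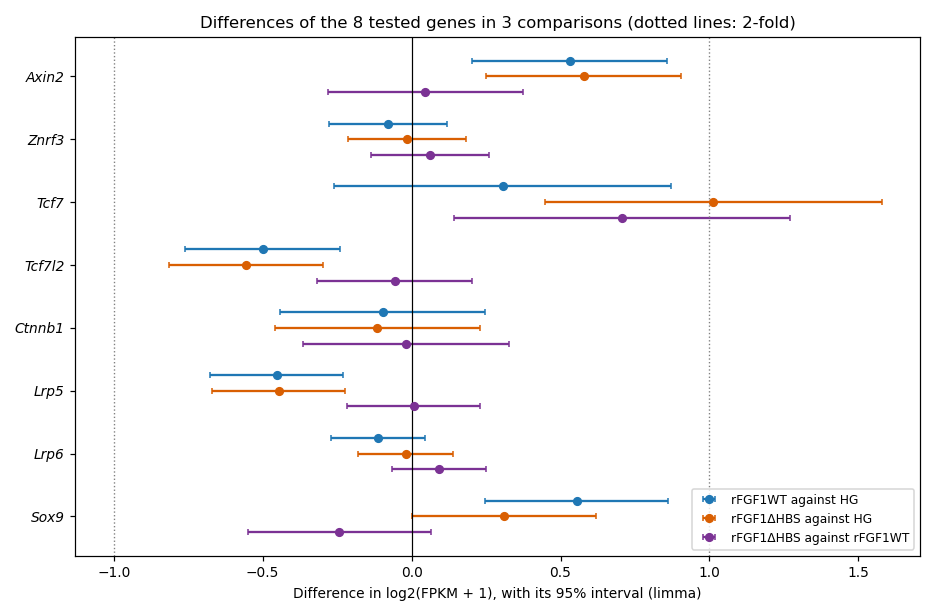
Differences in log2(FPKM + 1) of the 8 genes with a mean of at least 1 FPKM (horizontal axis, points) with their 95% intervals from limma (bars), by comparison (color), with dotted lines at 2-fold. *Axin2* and *Sox9* lie above 0 and *Tcf7l2* and *Lrp5* below 0 against HG with both proteins, and *Tcf7* is the gene furthest from 0, at 1.01 with rFGF1ΔHBS.

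With the study's limits, an adjusted p of 0.05 (Benjamini-Hochberg) and a 2-fold change, limma called 0 of the 8 genes in each comparison. Of all 10562 tested loci, 1.01% were called in rFGF1WT against HG, 0.899% in rFGF1ΔHBS against HG and 0.350% in rFGF1ΔHBS against rFGF1WT. Without the 2-fold limit the count remained 0 of 8, against 6.19%, 6.26% and 0.549% of all loci. The smallest adjusted p among the 8 were 0.0593 (*Lrp5*), 0.0524 (*Tcf7l2*) and 0.901 (*Tcf7*) in the same order. At an unadjusted p under 0.05, 4 of 8 genes passed with rFGF1WT, 5 with rFGF1ΔHBS and 1 between the proteins, against 24.8%, 24.9% and 4.87% of all loci.

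Groups that did not overlap were common among all loci. In rFGF1WT against HG, *Axin2* and *Sox9* were higher in both libraries, against 24.1% of loci, and *Tcf7l2*, *Lrp5*, *Lrp6* and *Znrf3* were lower, against 34.1%. In rFGF1ΔHBS against HG, *Axin2*, *Tcf7* and *Sox9* were higher, against 24.4%, and *Tcf7l2* and *Lrp5* lower, against 32.9%. Between the proteins, *Tcf7* and *Lrp6* were higher with rFGF1ΔHBS, against 18.4%, and *Sox9* lower, against 16.1%. These genes were selected on the same libraries, so nothing is read from their counts. The comparisons with HG share the HG libraries, and an exact permutation test of 2 against 2 libraries cannot give a p below 0.333.

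The partial agonist and the wild-type protein were compared at the same dose and time. For *Axin2*, *Tcf7l2*, *Ctnnb1*, *Lrp5* and *Znrf3* the libraries of the 2 proteins overlapped. Their log2 differences ran from −0.06 to 0.06, with 95% limits reaching from −0.36 to 0.37, so these values do not show that the proteins acted alike. For *Axin2* the interval was −0.28 to 0.37, for *Lrp5* −0.22 to 0.23 and for *Tcf7l2* −0.32 to 0.20. *Tcf7* was higher with rFGF1ΔHBS, at 1.80 times the rFGF1WT mean, and *Sox9* lower, at 0.767 times it, and neither passed the test across all loci (adjusted p = 0.901 and 0.905, limma).

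The rest of the pathway was followed through 7 lists with 115 genes, of which 107 were in the table and 65 were tested. Cyclin D1 (*Ccnd1*) rose to 7.54 and 7.72 times HG with rFGF1WT and rFGF1ΔHBS. The Frizzled receptor *Fzd4* and the R-spondin receptor *Lgr4* fell with both, and *Myc* and *Aes* rose with rFGF1WT. At an adjusted p under 0.05 these were 5 of 65 genes (7.69%) with rFGF1WT and 3 of 65 (4.62%) with rFGF1ΔHBS, near the shares of all loci given above, and *Ccnd1* alone also reached 2-fold. Unadjusted, 26 of 65 genes (40.0%) and 18 of 65 (27.7%) had a p under 0.05, against 24.8% and 24.9% of all loci. With rFGF1WT, 16 lay wholly above HG and 25 wholly below (24.6% and 38.5%, against 24.1% and 34.1% of all loci). With rFGF1ΔHBS these were 12 and 29 (18.5% and 44.6%, against 24.4% and 32.9%). The lists were chosen with earlier results of these data known, so nothing is read from these shares. The median log2 difference of the 65 was −0.07 and −0.06, against −0.04 and −0.04 over all tested loci. Between the proteins, limma called 0 of 65 with or without the 2-fold limit, and 1 had an unadjusted p under 0.05.

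**Figure D3:**
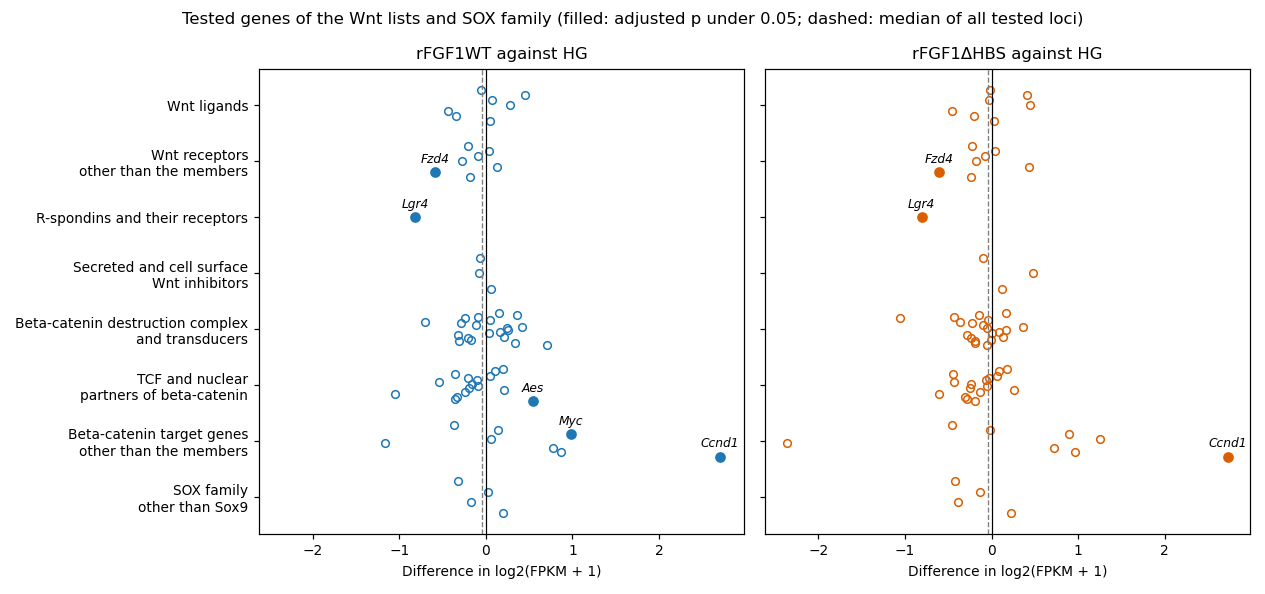
Differences in log2(FPKM + 1) against HG (horizontal axis) of the tested genes of 7 Wnt lists and the SOX family (rows) with rFGF1WT (left) and rFGF1ΔHBS (right), leaving out *Fzd1*, *Fzd2*, *Fzd7* and *Sox4*, which are listed at 0 in some libraries. Filled points have an adjusted p under 0.05 (limma); *Ccnd1* stands at 2.70 and 2.73 and most other genes lie near the dashed median of all tested loci.

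Among the target genes, 8 of 19 were tested. At an adjusted p under 0.05, 2 (25%) rose with rFGF1WT and 1 (12.5%) with rFGF1ΔHBS, against 6.19% and 6.26% of all loci in either direction. Unadjusted, 5 of 8 (62.5%) had a limma p under 0.05 with each protein, against 24.8% and 24.9% of all loci. Their median log2 difference was 0.45 and 0.81, against −0.04 and −0.04 over all tested loci. The list was chosen with earlier results of these data known. *Ccnd1*, which drives entry into the cell cycle, had 5.53 and 5.05 FPKM in HG, 40.2 and 39.5 with rFGF1WT, and 39.1 and 42.5 with rFGF1ΔHBS, log2 differences of 2.70 ± 0.07 and 2.73 ± 0.07 (adjusted p = 0.00145 and 0.00161, limma). *Myc*, a growth regulator, had 7.11 and 9.52 FPKM in HG, 15.9 and 18.8 with rFGF1WT, and 16.0 and 16.5 with rFGF1ΔHBS, log2 differences of 0.99 ± 0.16 and 0.90 ± 0.16 (adjusted p = 0.0457 and 0.0531). *Ccnd1* passed under all 13 alternative settings, whereas *Myc* passed under 4 of 13 and lost its call without any 1 of the 6 libraries (adjusted p up to 0.145). Both genes are also known to respond to growth factors.

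Among the receptors, 10 of 15 listed genes were tested. With each protein 1 (10%) had an adjusted p under 0.05, against 6.19% and 6.26% of all loci. Unadjusted, 3 (30%) and 2 (20%) had a limma p under 0.05, against 24.8% and 24.9%. *Fzd4*, a receptor for Wnt and Norrin, had 4.05 and 4.04 FPKM in HG, 2.34 and 2.36 with rFGF1WT, and 2.37 and 2.26 with rFGF1ΔHBS, log2 differences of −0.59 ± 0.07 and −0.61 ± 0.07 (adjusted p = 0.0229 and 0.0216). *Fzd4* was lower in 4 of 4 FGF1 libraries, but its call held under 3 of 12 alternative settings in each comparison and was lost without any 1 of the 6 libraries (adjusted p up to 0.0991 and 0.0938). *Fzd6*, next by p with rFGF1WT, differed by −0.27 ± 0.07 (adjusted p = 0.101), and *Ryk*, the most abundant of the list at 46.3 FPKM, by −0.21 ± 0.05 (adjusted p = 0.101). *Fzd1* was listed at 0 in both HG libraries and the second library of each FGF1 group and at 22.4 and 20.4 FPKM in the first, so no difference was read for it. *Fzd2* was listed at 0 in 5 libraries and *Fzd7* in 2.

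Of the R-spondins and their receptors, 1 of 7 genes was tested. *Lgr4*, which binds R-spondins and thereby protects Frizzled from RNF43 and ZNRF3, had 21.6 and 21.8 FPKM in HG, 12.0 and 11.8 with rFGF1WT, and 12.0 and 11.9 with rFGF1ΔHBS. The FGF1 libraries were close to each other and far below HG, and the log2 differences were −0.81 ± 0.05 with each protein (adjusted p = 0.00764 and 0.00892, limma). The calls held under 12 of 13 alternative settings, and a replicate block gave an adjusted p of 0.0521 and 0.0629.

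Of the ligands and their secretion factors, 7 of 21 were tested and 0 passed with limma, with 2 (28.6%) at an unadjusted p under 0.05 in each comparison with HG, against the same shares of all loci as above. *Wls*, which carries Wnt proteins to the surface and was the most abundant at 21.7 FPKM, differed by −0.35 ± 0.07 with rFGF1WT (adjusted p = 0.064), and *Wnt4* by −0.43 ± 0.10 (adjusted p = 0.0924). Of the secreted and surface inhibitors, 3 of 17 were tested, and 0 had an adjusted or unadjusted p under 0.05. *Kremen1* and *Apcdd1* differed by −0.07 and 0.05 with rFGF1WT, and *Dkk3*, the most abundant at 6.25 FPKM, ranged from 3.26 to 7.46 FPKM within the rFGF1WT group alone.

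All 20 genes of the destruction complex and transducers were tested and 0 passed with limma, with 7 (35.0%) and 3 (15.0%) at an unadjusted p under 0.05 in the comparisons with HG, against 24.8% and 24.9% of all loci. *Dvl1* and *Dvl3*, which relay the signal from Frizzled, differed from HG in opposite directions, by 0.41 ± 0.08 (adjusted p = 0.0688) and −0.29 ± 0.06 (adjusted p = 0.0705) with rFGF1WT. *Tnks2*, which marks Axin for degradation and was the most abundant at 50.8 FPKM, differed by 0.15 ± 0.04 (adjusted p = 0.133). Of the 16 TCF and nuclear partners, 1 (6.25%) passed with rFGF1WT and 0 with rFGF1ΔHBS, against 6.19% and 6.26% of all loci. Unadjusted, 8 (50.0%) and 5 (31.25%) had a limma p under 0.05 in the comparisons with HG. *Aes*, a short Groucho relative, had 53.3 and 52.0 FPKM in HG, 77.3 and 76.7 with rFGF1WT, and 42.2 and 49.6 with rFGF1ΔHBS. It rose with rFGF1WT (log2 difference 0.54 ± 0.09, adjusted p = 0.0477) and was below HG with rFGF1ΔHBS (−0.20 ± 0.09, adjusted p = 0.268), and the difference between the proteins was −0.74 ± 0.09 (adjusted p = 0.105). The rise with rFGF1WT held under 7 of 13 alternative settings and was lost without either HG library or either rFGF1WT library (adjusted p up to 0.163). The chromatin remodeler *Chd8*, which binds beta-catenin, differed by −0.24 ± 0.05 with rFGF1WT (adjusted p = 0.0800).

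Of the SOX family other than *Sox9*, 5 of 18 genes were tested. *Sox4*, which can act with beta-catenin, had 56.7 and 57.5 FPKM in HG and was listed at 0 in all 4 FGF1 libraries. An exact 0 can be a failed estimate of a locus, so no fold is given, although limma called *Sox4* in both comparisons with HG. *Sox11* ranged from 7.31 to 9.37 FPKM and differed by 0.20 ± 0.07 (adjusted p = 0.204) with rFGF1WT. Of 16 cartilage genes that SOX9 activates, 13 were in the table and 0 reached the filter of 1 FPKM, so none could be tested. Their summed FPKM was between 1.23 and 1.49 in every library.

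The named loci whose log2(FPKM + 1) most resembled *Axin2* over the 6 libraries were *Tmtc3* (Pearson's r = 0.999), *Ddias* (0.997) and *Myo19* (0.994). For *Sox9* they were *1110008F13Rik* (0.986), *Snord66* (0.984) and *Fam49b* (0.984). *Tmtc3* ranged from 15.5 to 18.8 FPKM and *Ddias* from 6.11 to 9.42 FPKM, with HG lowest in both. These are the highest of 10562 values of r over 6 libraries that fall in 3 groups of 2, and describe likeness in these libraries only.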

How the data were processed

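The authors sequenced poly(A) RNA as paired ends and deposited FPKM in 1 table for 24469 loci in 6 libraries. The submitters' processing notes name Bowtie 0.12.2, HISAT2 2.0, StringTie 1.3.0 and mm8 without roles, and whether strand was used is not given in the sources used here. Positions came from GENCODE M21 (GRCm38) through Ensembl transcripts, and promoters from RefSeq.

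Libraries were grouped by their labels. Loci averaging 1 FPKM or more (10562) entered limma 3.58.1 under R 4.3.3 as log2(FPKM + 1) (trend, 1 fit of 6 libraries, 3 residual degrees of freedom), with Benjamini-Hochberg adjustment over all of them, an adjusted p of 0.05 and 2-fold. Figures used matplotlib 3.10.9. Depth is unknown, so no counting intervals are given. On simulated data for rFGF1WT against HG with 10562 loci, limma called 159 of 200 changed loci and 8 unchanged ones. How often limma calls differences of the sizes seen in the 10 genes was not tested. The 10 genes and all lists were chosen with earlier results of these data known. Named genes are all 10, and of each other list those called, the 2 with the smallest adjusted p with rFGF1WT and the most abundant; *Wt1*, *Nphs1* and other markers, *Fzd1*, *Fzd2* and *Fzd7* were named after their values were seen, and 1 marker is not reported here. Alternatives were another pseudocount (0.1), no filter or one at 5, median-ratio scaling, the 4 libraries compared, a replicate block, no 2-fold limit, summed loci and leaving out each library.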

Additional observations from a re-analysis of the deposited data

How the results depend on the processing

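Counts of loci called by limma are given in the order rFGF1WT against HG, rFGF1ΔHBS against HG, and rFGF1ΔHBS against rFGF1WT, from 107, 95 and 37. They became 654, 661 and 58 without the 2-fold limit and 39, 36 and 6 with a replicate block. Over all tested loci, same-numbered libraries deviated together with r of −0.02, 0.10 and −0.05. Such values cannot show whether same-numbered libraries shared a culture or batch, so pairing remains unknown. With a pseudocount of 0.1 rFGF1ΔHBS against HG had 151, with a filter at 5 FPKM rFGF1WT against HG had 69 and the proteins against each other 18, and over loci above 0 in all libraries, an alternative added after seeing the data, the latter had 20. Leaving out 1 library gave 101 to 155, 104 to 133 and 43 to 103. Of the 10 genes, 0 were called, except that *Tcf7* was called in rFGF1ΔHBS against HG (count 1) with only the 4 libraries compared and without either rFGF1WT library (0 to 1 over libraries left out), and the replicate block called 0. *Ccnd1* was called with both proteins under each setting, and was the 1 wider Wnt gene called. Without the 2-fold limit there were 5 and 3, with a pseudocount of 0.1 or median-ratio scaling 2 with rFGF1WT (*Myc* added), and with the KEGG Wnt genes of the table, added after seeing the data, 2 and 2 (*Ccnd2* added). Leaving out 1 library gave 1 to 2, 1 to 3 and 0 to 2. *Cd44* was added without the second HG library, and *Fzd2* and *Gsk3b* without the second rFGF1ΔHBS library, where the lone sample left is assumed to vary like the other groups.

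Log2 differences that changed sign were small in each case. Over fits that left out 1 library, *Ctnnb1* ran from −0.24 to 0.046 with rFGF1WT against HG (above 0 without the first HG or the second rFGF1WT library, where it was 0.014), from −0.26 to 0.027 with rFGF1ΔHBS against HG and from −0.13 to 0.092 between the proteins, with 0.00088 when the second rFGF1ΔHBS library was left out. Against HG with rFGF1ΔHBS, *Lrp6* ran from −0.069 to 0.028 and *Znrf3* from −0.041 to 0.0072, and median-ratio scaling gave 0.012 and 0.0098. Between the proteins, *Axin2* ran from −0.053 to 0.146, *Tcf7l2* from −0.159 to 0.047 and *Lrp5* from −0.090 to 0.10. For *Rnf43*, which the filter left out, the plain difference of group means between the proteins ran from −0.029 to 0.090 over libraries left out. The causes were not tested. Each of the 10 genes has 1 locus, so summing loci changes none of them, and *Lef1* and *Rnf43*, with a mean under 1 FPKM, were fitted only without a filter. The filter at 5 FPKM kept 3 of the 10 genes (*Ctnnb1*, *Lrp5* and *Lrp6*), so its count of 0 covers only these. Precision is limited by 2 libraries per group and unknown depth.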
